A study of Homo sapiens with 12 samples.

Results

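Heat shock factors switch on chaperone genes when proteins are damaged, and a second set of genes tags and removes the proteins that cannot be refolded. Both sets were followed here through 9 genes in HEK293 cells in which the level of MED12 had been altered. The factors were HSF1 and HSF2, the small heat shock proteins were HSPB1 and HSPB8, and the clearance genes were ZFAND2A, UBB, SQSTM1, GABARAP and VCP. The genes were chosen by name, with an earlier reading of the same arrays in view, in which the higher values of ZFAND2A with full-length MED12 and of UBB with the shortened MED12 had been seen. A value was taken only from a row annotated with 1 gene symbol, and 6 of the 9 genes had such a row, 1 each, among 14432 rows of that kind and 22011 rows in all. SQSTM1 and HSPB8 were named only on rows that carry several symbols, 2 rows and 1 row, so no value could be assigned to either. HSF2 was named on no annotated row, so it has no array value here.

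RNA of HEK293, an established cell line derived from human embryonic kidney, was measured on 12 arrays, 3 biological replicates in each of 4 groups, to set raised, shortened and reduced MED12 beside a control. MED12 belongs to the kinase module of the Mediator complex, which relays signals from transcription factors to RNA polymerase II. The full-length group received whole MED12 with a nuclear GFP tag at its N terminus in the plasmid pcDNA5/TO, and the PQL/Opa deletion group received the same tagged construct without the C-terminal PQL and Opa domains. The shRNA group received a short hairpin against the endogenous MED12, labelled shRNA 5, driven by an H1 promoter in the plasmid peGFP-C1. The GFP control group received nuclear GFP in pcDNA5/TO, so the hairpin and its control differ in vector as well as in MED12, and 0 groups carried a control hairpin. Cells of all groups grew for 24 hours, were transfected by lipofection, were harvested 48 hours later and were sorted for 20 minutes for living cells with visible GFP. Each array reads a bulk sample, in which a lower value from fewer expressing cells cannot be told apart from less RNA per cell. RNA was amplified and labelled with biotin before hybridisation.

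HSF1 is present in unstressed cells, held inactive by chaperones; unfolded proteins draw those chaperones away, and HSF1 then forms trimers that bind heat shock elements, inverted repeats of the letters GAA, in the promoters of chaperone genes. HSF2 is a related factor that can join HSF1 in mixed trimers. Proteins beyond repair are marked with ubiquitin, pulled out of complexes by the ATPase VCP and passed to the proteasome, or are collected by SQSTM1 into autophagosomes, whose membranes carry GABARAP.

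The promoters of 3 of the genes are shown because they set beside each other ZFAND2A and UBB, which had the higher values with both MED12 constructs, and HSPB1, which is in textbooks an HSF1 target and did not. Each window is 300 bases long on the coding strand, 250 bases before the annotated start and 50 from it on, taken from RefSeq on GRCh38.p14. Capitals mark matches to 2 facing units of the heat shock element, GAANNTTC or TTCNNGAA. Both motifs are their own reverse complements, so a search of 1 strand covers both. The windows lie at chr7:1160147-1160446 on the minus strand for ZFAND2A, at chr7:76302423-76302722 on the plus strand for HSPB1, and at chr17:16381040-16381339 on the plus strand for UBB.
ZFAND2A promoter window: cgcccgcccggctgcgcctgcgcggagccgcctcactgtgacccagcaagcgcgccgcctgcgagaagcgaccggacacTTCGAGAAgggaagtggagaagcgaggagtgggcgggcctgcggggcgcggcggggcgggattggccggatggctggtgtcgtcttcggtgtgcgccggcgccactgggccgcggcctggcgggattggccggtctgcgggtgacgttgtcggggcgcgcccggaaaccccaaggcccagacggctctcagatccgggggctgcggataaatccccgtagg
HSPB1 promoter window: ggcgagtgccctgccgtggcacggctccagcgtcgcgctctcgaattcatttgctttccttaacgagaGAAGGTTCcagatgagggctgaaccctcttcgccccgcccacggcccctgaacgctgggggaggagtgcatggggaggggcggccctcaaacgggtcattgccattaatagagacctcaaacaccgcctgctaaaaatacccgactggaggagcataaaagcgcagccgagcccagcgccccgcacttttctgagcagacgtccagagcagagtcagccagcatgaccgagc
UBB promoter window: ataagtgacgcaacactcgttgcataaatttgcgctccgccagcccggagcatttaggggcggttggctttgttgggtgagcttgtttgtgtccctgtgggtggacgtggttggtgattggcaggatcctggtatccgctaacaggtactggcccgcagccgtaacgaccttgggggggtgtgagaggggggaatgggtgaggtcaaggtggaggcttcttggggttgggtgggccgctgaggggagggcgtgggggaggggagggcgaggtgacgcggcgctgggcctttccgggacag

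ZFAND2A held TTCGAGAA at 171 to 164 bases before its start, and HSPB1 held GAAGGTTC at 182 to 175 bases before its start. UBB held neither motif in the window shown or in a second annotated one at chr17:16381091-16381390. Of the 9 genes 8 had a window that could be searched, 12 windows in all, and 3 had a match, where 16.2% of 27305 genes had one in any of their windows. The third was HSPB8, with 1 match at 88 to 81 bases before the start and another at bases 4 to 11 after it. The 2-unit motifs stood in 13.5% of 35116 promoter windows of all genes, and in 11.3% of the 16426 windows of genes with a row of their own. None of the 12 windows of the listed genes held 3 units in a row (GAANNTTCNNGAA or TTCNNGAANNTTC), which stood in 0.49% of all windows. A match describes these letters only, and its absence from a window of this length says nothing about whether HSF1 binds the gene.

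The arrays had medians of 3.39 to 3.51 on the log2 scale of the deposited values, which is used for every value below. MED12 averaged 10.68 ± 0.06 with full-length MED12, 8.92 ± 0.32 with the PQL/Opa deletion, 3.67 ± 0.06 with the shRNA and 4.41 ± 0.34 with GFP (SD, n = 3). Which part of MED12 its row covers is not given, so the value of the shortened construct need not be its amount. Of 9 measured markers of this line 2 lay above the 90th percentile of rows, KRT8 and VIM, an epithelial and a mesenchymal filament gene, while KRT18, the partner of KRT8, stood at the 49.5th. Of 3 leukocyte, 4 endothelial and 5 fibroblast markers 0 lay above it. The spread of values within an array differed: the 3 narrowest arrays were replicate 1 of the shRNA, with an SD of 1.34, of GFP, with 1.40, and of the PQL/Opa deletion, with 1.45, and the other SDs went from 1.47 up. All comparisons with GFP share the same 3 GFP arrays, and p-values measure the spread between the replicates of this experiment only.

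HSF1, the master regulator of the heat shock response, overlapped between all groups. Its row (3120358) read 4.16, 4.03 and 3.89 in full-length replicates 1, 2 and 3, 3.88, 4.10 and 4.62 in the PQL/Opa deletion replicates, 4.35, 3.93 and 4.35 in the shRNA replicates, and 4.71, 4.14 and 3.81 in the GFP replicates. The highest and the lowest of the 12 values were both GFP arrays, so the control alone spanned all other groups. The means were 4.03 ± 0.14 with full-length MED12, 4.20 ± 0.38 with the PQL/Opa deletion, 4.21 ± 0.24 with the shRNA and 4.22 ± 0.45 with GFP (SD, n = 3), and no neighbours in that order differed beyond their spread. The log2 fold changes against GFP were -0.19 for full-length MED12, -0.02 for the PQL/Opa deletion and -0.01 for the shRNA, each with a standard error of 0.25. The 3 other rows of the heat shock factor family and its binding proteins, of 8 such genes looked for, were HSF4, HSF2BP and HSBP1. None of them passed the test in any comparison, and their median log2 fold change against GFP was 0.15 with full-length MED12, 0.04 with the PQL/Opa deletion and 0.13 with the shRNA.

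**Figure D1:**
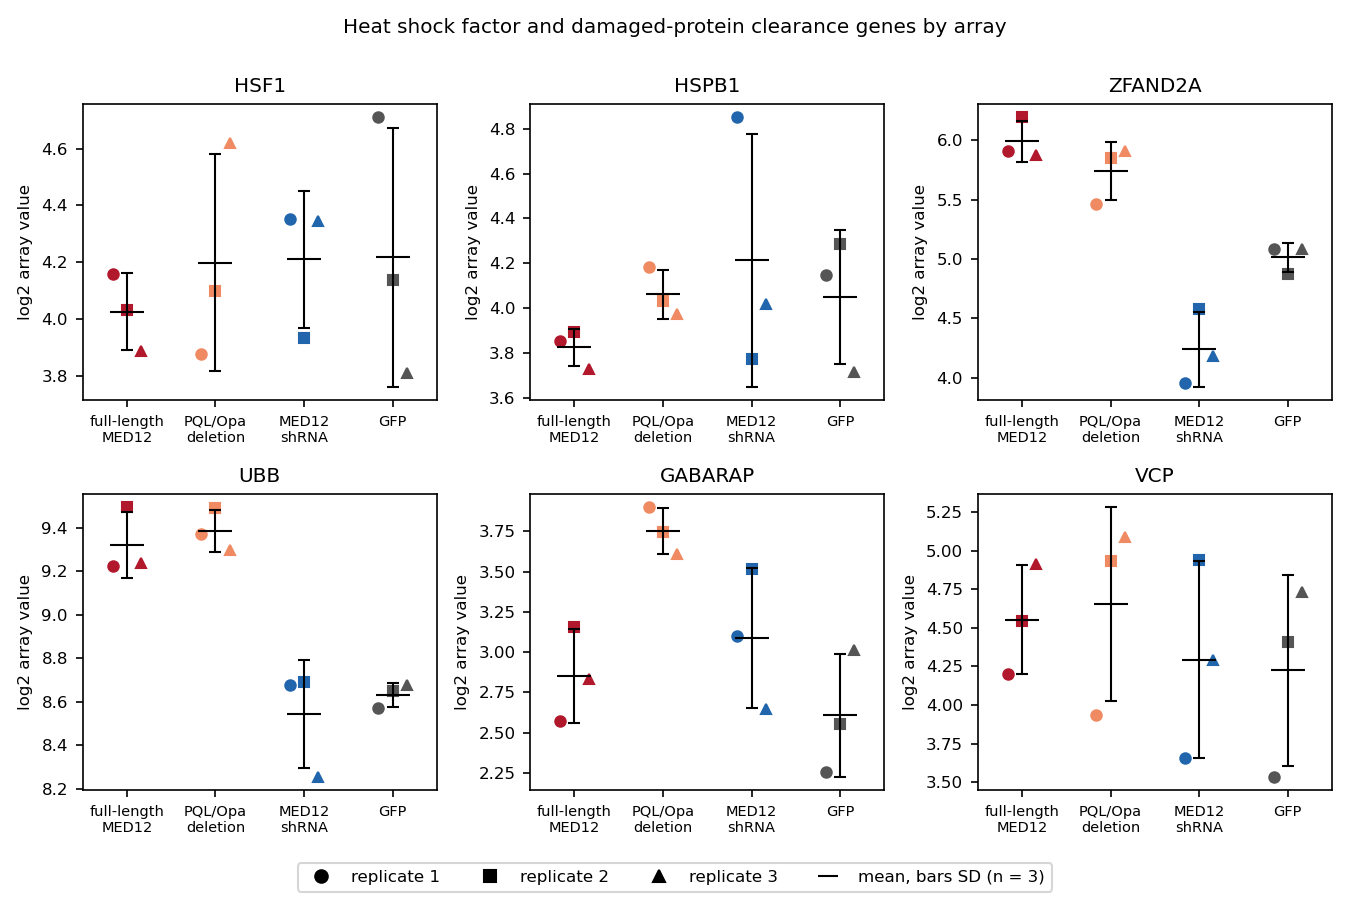
Log2 array values (vertical axis, a separate range for each gene) of the 6 genes in each array, by group, with circles, squares and triangles for replicates 1, 2 and 3 and bars for the mean and SD (n = 3). ZFAND2A and UBB stand higher with both MED12 constructs than with GFP in every replicate, GABARAP does so with the PQL/Opa deletion only, and HSF1, HSPB1 and VCP overlap with GFP in all groups.

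HSPB1, a small heat shock protein that holds unfolding proteins in a refoldable state, also overlapped with GFP in every group. Its row (3009399) read 3.85, 3.89 and 3.73 with full-length MED12, 4.18, 4.03 and 3.97 with the PQL/Opa deletion, 4.85, 3.77 and 4.02 with the shRNA, and 4.15, 4.28 and 3.72 with GFP. The highest value came from the narrowest array, replicate 1 of the shRNA, and whether that spread plays a part was not tested. The means were 3.82 ± 0.08 with full-length MED12, 4.06 ± 0.11 with the PQL/Opa deletion, 4.21 ± 0.56 with the shRNA and 4.05 ± 0.30 with GFP (SD, n = 3). The GFP mean stood at the 72.3rd percentile of all rows. Whether this row reads above background was not tested, so overlap in it need not mean that HSPB1 RNA was unchanged. Log2 fold changes against GFP were -0.23 with full-length MED12, 0.01 with the PQL/Opa deletion and 0.16 with the shRNA (SE 0.25 each). The 3 full-length arrays lay below the 3 PQL/Opa deletion arrays by a gap of only 0.08, with a log2 fold change of -0.24 ± 0.25 (SE). Of 11 small heat shock protein genes looked for, 6 others were measured, and none passed in any comparison. HSPB6, a muscle-enriched member, had the largest positive log2 fold change of that list with full-length MED12 against GFP, 0.44 ± 0.21 (SE). HSPB7, another muscle-enriched member, had the largest negative one, -0.41 ± 0.29 (SE). Neither sign was particular to full-length MED12. Against GFP HSPB6 was also 0.43 with the PQL/Opa deletion and 0.36 with the shRNA, and HSPB7 was -0.16 and -0.46. With the shRNA HSPB9, a testis-enriched member, averaged 3.36 ± 0.69, against 2.81 ± 0.25 with GFP (SD, n = 3).

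ZFAND2A was the one gene of the 6 that passed a test. It encodes an arsenite-inducible protein with AN1-type zinc fingers that binds the proteasome under stress, and it is a known HSF1 target. Its row (3035135) read 5.91, 6.19 and 5.88 in full-length replicates 1, 2 and 3, 5.46, 5.85 and 5.91 in the PQL/Opa deletion replicates, 3.96, 4.58 and 4.18 in the shRNA replicates, and 5.09, 4.87 and 5.08 in the GFP replicates. All 6 arrays of the MED12 constructs lay above all GFP arrays, and all 3 shRNA arrays lay below them. The means were 5.99 ± 0.17 with full-length MED12, 5.74 ± 0.25 with the PQL/Opa deletion, 4.24 ± 0.31 with the shRNA and 5.01 ± 0.12 with GFP (SD, n = 3). In order of level the shRNA came last, below GFP, and of the neighbours in that order only the top pair overlapped, with a log2 fold change of full-length MED12 against the PQL/Opa deletion of 0.25 ± 0.19 (SE).

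Set against GFP, ZFAND2A had a log2 fold change of 0.98 ± 0.19 (SE) with full-length MED12, a ratio of 1.97, and of 0.73 ± 0.19 (SE) with the PQL/Opa deletion, a ratio of 1.66. With the shRNA it was -0.78 ± 0.19 (SE), so that GFP stood 1.71-fold above the shRNA. These differences describe the gene and lend no support of their own, since the first of them was among the values that chose it, and none passed over all rows with limma. Between the opposite manipulations ZFAND2A fell by 1.76 ± 0.19 (SE) on the log2 scale with the shRNA against full-length MED12, with every shRNA array at least 1.30 below every full-length array. That is a 3.38-fold difference (limma, adjusted p = 0.00400 over all rows). A moderated F test of any difference among the 4 groups also passed (limma, adjusted p = 0.0121). Both p-values share arrays with the difference that chose the gene and are no independent evidence. The shRNA and full-length groups also differ in vector, which cannot be told apart from MED12 itself. The F test missed the threshold without full-length replicate 2 (adjusted p = 0.0512), without shRNA replicate 1 (0.0572) or without shRNA replicate 3 (0.0912). The pairwise test missed it when these groups were fitted alone (limma, adjusted p = 0.0988, the highest of 19 alternatives, of which the lowest was 0.00209).

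Of 7 genes with AN1-type zinc fingers looked for, 5 others were measured, and none passed in any comparison. Their median log2 fold change against GFP was 0.00 with full-length MED12, 0.01 with the PQL/Opa deletion and -0.26 with the shRNA. ZFAND5, a zinc finger protein that activates the proteasome, averaged 5.42 ± 0.69 with the shRNA and 5.98 ± 0.25 with GFP (SD, n = 3), a log2 fold change of -0.56 ± 0.29 (SE). ZFAND2B, the nearest relative of ZFAND2A, averaged 3.97 ± 0.23 with the PQL/Opa deletion and 3.78 ± 0.33 with GFP (SD, n = 3), a log2 fold change of 0.19 ± 0.20 (SE).

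UBB, a polyubiquitin gene whose product is cut into single ubiquitins, was higher with both constructs and not with the hairpin. Its row (3712041) read 9.23, 9.49 and 9.24 with full-length MED12, 9.37, 9.49 and 9.30 with the PQL/Opa deletion, 8.68, 8.69 and 8.26 with the shRNA, and 8.57, 8.65 and 8.68 with GFP. All 6 arrays of the MED12 constructs lay above all arrays of the shRNA and GFP groups, while shRNA and GFP overlapped. The means were 9.32 ± 0.15 with full-length MED12, 9.39 ± 0.10 with the PQL/Opa deletion, 8.54 ± 0.25 with the shRNA and 8.63 ± 0.06 with GFP (SD, n = 3). In order of level, neither the upper pair, the MED12 constructs, nor the lower pair, shRNA and GFP, differed beyond its spread.

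The log2 fold change of UBB against GFP was 0.69 ± 0.16 (SE) with full-length MED12, a ratio of 1.61, and 0.75 ± 0.16 (SE) with the PQL/Opa deletion, a ratio of 1.69. The second of these was among the values that chose the gene, and neither passed over all rows with limma. With the shRNA the log2 fold change was -0.09 ± 0.16 (SE) against GFP. It was -0.78 ± 0.16 (SE) against full-length MED12, which missed the threshold (limma, adjusted p = 0.173 over all rows). UBB and ZFAND2A thus read differently in the hairpin arrays: ZFAND2A lay below every GFP array in 3 of 3 shRNA arrays and UBB in 1 of 3, and the difference between the genes was not tested. The coding repeats of UBB are not unique in the genome, so its row may not read UBB alone.

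**Figure D2:**
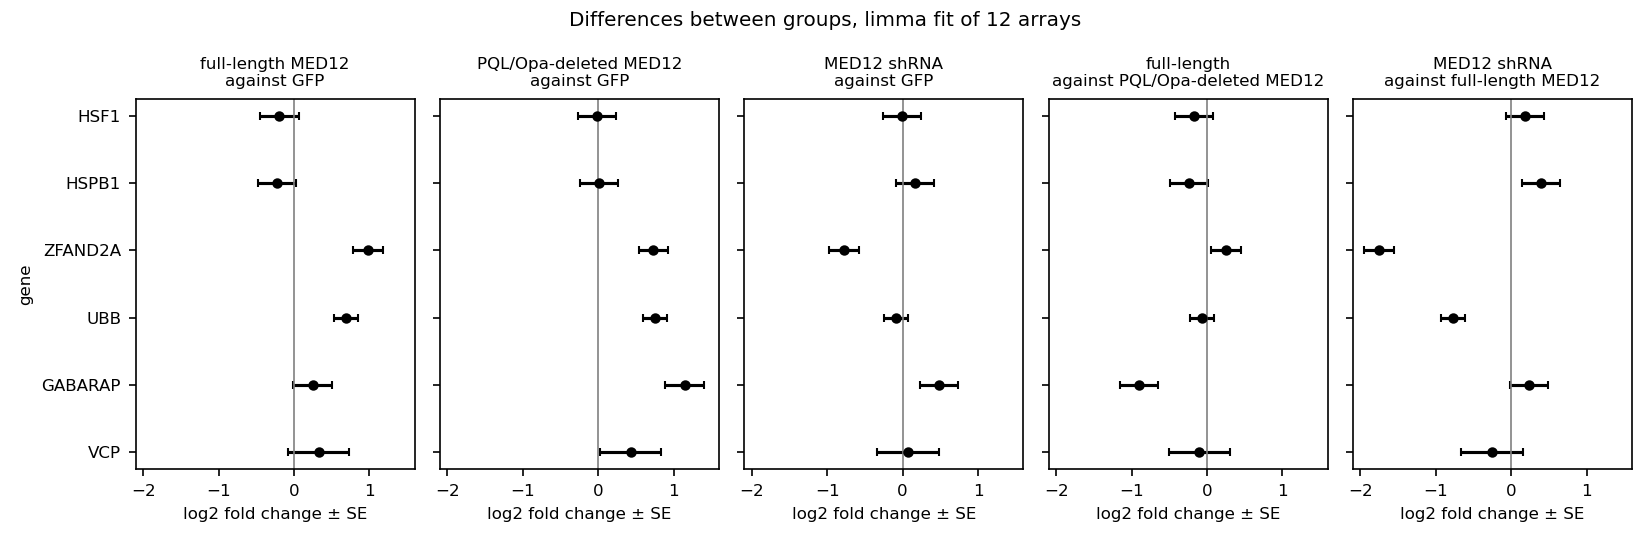
Log2 fold change with its standard error (horizontal axis, limma fit of 12 arrays) of the 6 genes in 5 comparisons, each named with the group on top of the fold change first. ZFAND2A runs from 0.98 with full-length MED12 to -0.78 with the shRNA against GFP, UBB sits at 0.69 and 0.75 with the constructs and near 0 with the shRNA, and GABARAP reaches 1.14 with the PQL/Opa deletion.

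GABARAP, an ATG8-family protein that is joined to autophagosome membranes and recruits cargo receptors, was highest with the shortened construct. Its row (3743486) read 2.57, 3.15 and 2.83 with full-length MED12, 3.90, 3.75 and 3.61 with the PQL/Opa deletion, 3.10, 3.52 and 2.65 with the shRNA, and 2.26, 2.55 and 3.01 with GFP. The 3 PQL/Opa deletion arrays lay above all 9 other arrays, and those of the remaining groups overlapped. The means were 2.85 ± 0.29 with full-length MED12, 3.75 ± 0.14 with the PQL/Opa deletion, 3.09 ± 0.44 with the shRNA and 2.61 ± 0.38 with GFP (SD, n = 3). The GFP mean stood at the 20.8th percentile of all rows, and nothing in the values places it above background, so any difference from it is of uncertain size.

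Against GFP the log2 fold change of GABARAP was 0.25 ± 0.26 (SE) with full-length MED12, 1.14 ± 0.26 (SE) with the PQL/Opa deletion, a ratio of 2.21, and 0.48 ± 0.26 (SE) with the shRNA. Full-length MED12 stood below the PQL/Opa deletion by a log2 fold change of -0.90 ± 0.26 (SE). None of these passed over all rows with limma. Of the other 22 measured genes of the ATG8 family and the autophagy core, from 31 looked for, none passed in any comparison. Their median log2 fold change against GFP was 0.08 with full-length MED12, 0.07 with the PQL/Opa deletion and -0.03 with the shRNA. GABARAPL2, a close relative, had a log2 fold change with the PQL/Opa deletion of 0.07 ± 0.24 (SE), and MAP1LC3B, the ATG8 protein most used to mark autophagosomes, 0.42 ± 0.45 (SE). GABARAPL2 was picked after its values were seen, as the nearest relative measured.

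VCP, the ATPase that pulls ubiquitin-tagged proteins from membranes and complexes, had its lowest value in replicate 1 of every group. Its row (3204404) read 4.20, 4.54 and 4.91 with full-length MED12, 3.94, 4.93 and 5.09 with the PQL/Opa deletion, 3.66, 4.94 and 4.29 with the shRNA, and 3.54, 4.41 and 4.73 with GFP. All 4 groups overlapped. The 5 lowest values came from the 5 arrays with the narrowest spread. Whether that spread plays a part was not tested. The means were 4.55 ± 0.35 with full-length MED12, 4.65 ± 0.62 with the PQL/Opa deletion, 4.29 ± 0.64 with the shRNA and 4.23 ± 0.62 with GFP (SD, n = 3). The log2 fold change with full-length MED12 against GFP was 0.33 ± 0.41 (SE), and it was -0.02 without the 3 narrowest arrays. Those with the PQL/Opa deletion and the shRNA were 0.43 and 0.07. Among 25 measured VCP cofactors, from 30 looked for, none passed in any comparison, with median log2 fold changes against GFP of 0.11 with full-length MED12, 0.10 with the PQL/Opa deletion and -0.08 with the shRNA. UBXN7, an adaptor that brings VCP to ubiquitin ligases, averaged 4.29 ± 0.03 with full-length MED12 and 3.91 ± 0.21 with GFP (SD, n = 3), a log2 fold change of 0.37 ± 0.19 (SE). VCPIP1, a deubiquitinase that works with VCP, averaged 3.87 ± 0.18 with the shRNA and 4.36 ± 0.07 with GFP (SD, n = 3), a log2 fold change of -0.50 ± 0.15 (SE).

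**Figure D3:**
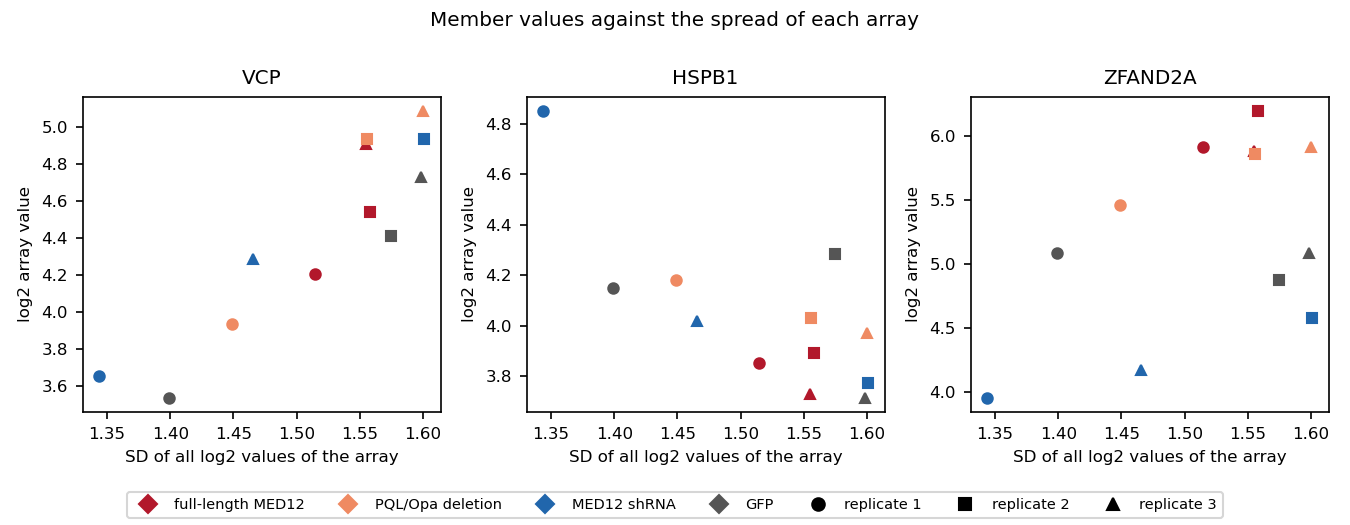
Log2 values of VCP, HSPB1 and ZFAND2A (vertical axes) in the 12 arrays against the SD of all log2 values of the array (horizontal axis), with colours for groups and shapes for replicates. The 5 narrowest arrays hold the 5 lowest VCP values, and the narrowest array holds the highest HSPB1 value. ZFAND2A is lowest in the 3 shRNA arrays, and its full-length and PQL/Opa deletion values overlap. Within the shRNA and PQL/Opa deletion groups ZFAND2A rises with the spread, and within the full-length and GFP groups it has no such order. Whether the spread plays a part was not tested.

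Over the 6 genes the counts were small in every comparison. With full-length MED12 against GFP limma called 0 of 6 genes, where 0.0136% of all rows were called, and 2 genes, ZFAND2A and UBB, were higher at an unadjusted p under 0.05, as were 1.44% of all rows. The same 2 lay wholly above GFP, as did 4.03% of all rows. With the PQL/Opa deletion it called 0 of 6 against 0.00454% of rows. There 3 genes, ZFAND2A, UBB and GABARAP, were higher at an unadjusted p under 0.05, where 1.75% of rows were, and the same 3 lay wholly above GFP, where 4.13% of rows did. With the shRNA it called 0 of 6 against 0.0681% of rows, and 1 gene, ZFAND2A, was lower at an unadjusted p under 0.05, beside 2.58% of rows, and lay wholly below GFP, beside 3.85% of rows. Because these comparisons were known when the genes were chosen, nothing is read from these counts.

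Full-length MED12 against the PQL/Opa deletion gave 0 of 6 calls with limma, beside 0.00454% of rows. There 1 gene, GABARAP, was lower at an unadjusted p under 0.05, beside 0.795% of rows, and 2 genes, HSPB1 and GABARAP, lay wholly below the PQL/Opa deletion, beside 3.09% of rows. The shRNA against full-length MED12 gave 1 of 6, ZFAND2A, where 0.104% of rows were called in either direction. ZFAND2A and UBB were lower at an unadjusted p under 0.05, beside 4.22% of rows, and both lay wholly below full-length MED12, beside 5.98% of rows. The F test over the 4 groups called ZFAND2A alone of the 6, and 0.0863% of all rows. The median log2 fold change of the 6 genes was 0.29 with full-length MED12 against GFP, 0.58 with the PQL/Opa deletion against GFP and 0.03 with the shRNA against GFP. It was -0.14 for full-length MED12 against the PQL/Opa deletion and -0.04 for the shRNA against full-length MED12. Over all rows the medians of the same comparisons lay between -0.01 and 0.04.

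The genes whose values most resembled those of ZFAND2A over the 12 arrays were chaperone genes. HSPA4L, an HSP110-type nucleotide exchange factor of HSP70 chaperones, correlated with it at a Pearson r of 0.950, and HSPH1, of the same class, at 0.935. HSPA4L averaged 5.09 ± 0.09 with full-length MED12, 4.48 ± 0.32 with the PQL/Opa deletion, 3.59 ± 0.37 with the shRNA and 4.19 ± 0.08 with GFP (SD, n = 3). HSPH1 averaged 7.48 ± 0.08, 6.65 ± 0.27, 5.36 ± 0.58 and 6.18 ± 0.28 in the same groups. Both had the order of ZFAND2A, full-length MED12 first and the shRNA last. For UBB the most alike were HSPA8, the constitutive cytosolic HSP70, at 0.919, and FSAF1 at 0.915. HSPA8 averaged 9.52 ± 0.02 with full-length MED12, 9.38 ± 0.17 with the PQL/Opa deletion, 8.74 ± 0.25 with the shRNA and 8.75 ± 0.18 with GFP (SD, n = 3). Like UBB it stood high with both constructs and had overlapping values with the shRNA and GFP. FSAF1, which is not among the protein quality control genes followed here, averaged 4.26 ± 0.11, 4.26 ± 0.22, 3.67 ± 0.34 and 3.79 ± 0.05 in the same groups.

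For each of the other 4 genes both neighbours lay outside protein quality control. For GABARAP they were MRPL14, a mitochondrial ribosomal protein gene, at 0.946 and TMSB10, an actin-binding peptide gene, at 0.905. MRPL14 was also highest with the PQL/Opa deletion, at 5.86 ± 0.13, beside 5.32 ± 0.19 with full-length MED12, 5.36 ± 0.38 with the shRNA and 5.15 ± 0.31 with GFP (SD, n = 3). For VCP they were OGT, the enzyme that attaches N-acetylglucosamine to proteins, at 0.986 and TOP3A, a DNA topoisomerase gene, at 0.983. HSF1 was nearest to C11orf71 at 0.889 and CKMT2 at 0.873, and HSPB1 to GALNT15 at 0.947 and TMEM174 at 0.939. These correlations describe 12 arrays that share 4 groups and the array differences above, and each pair was picked as the highest among 14432 rows.

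**Figure D4:**
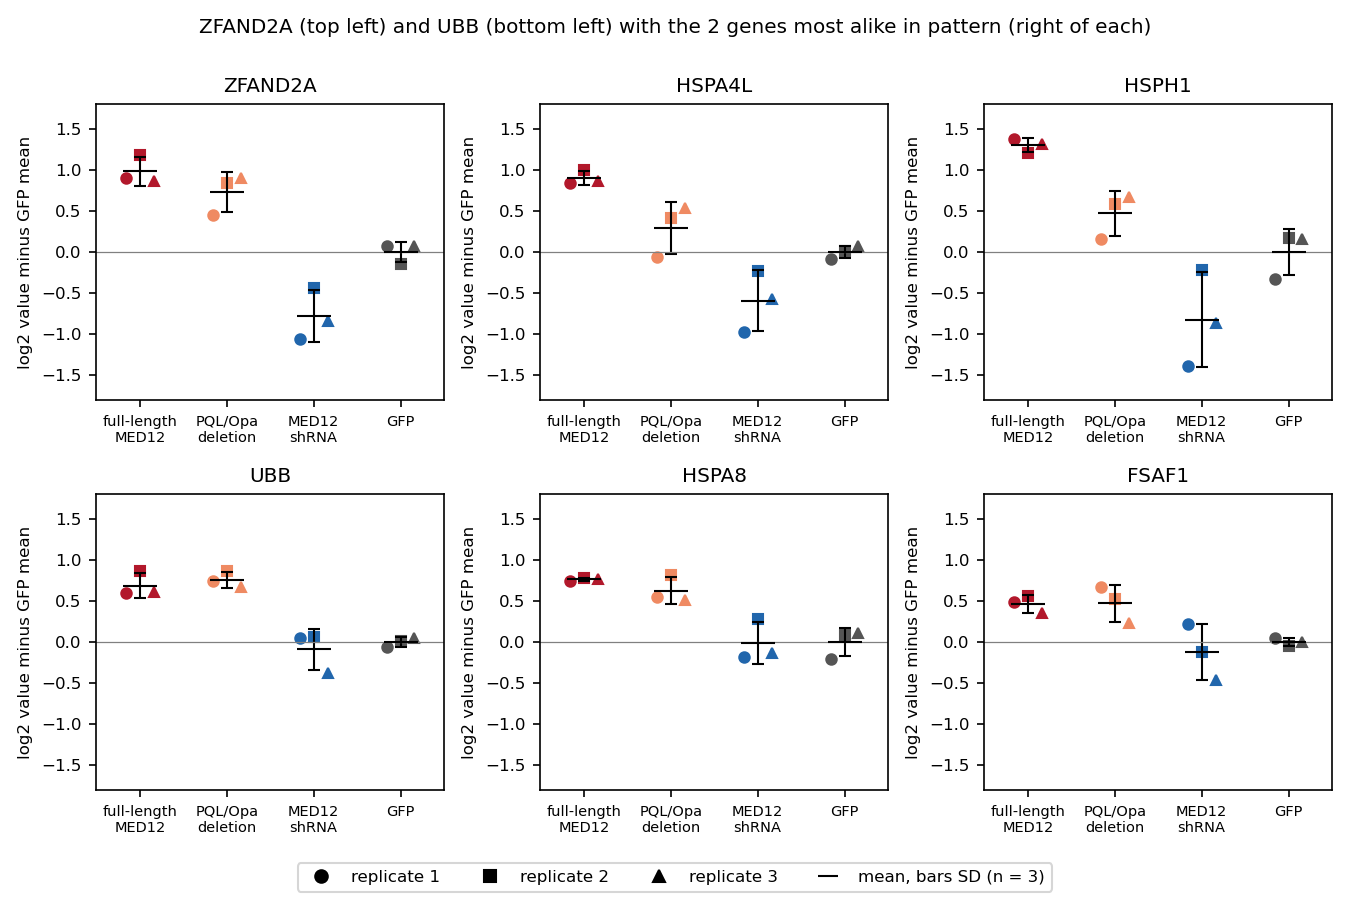
Log2 value minus the GFP mean (vertical axis) of ZFAND2A with HSPA4L and HSPH1 in the upper row and of UBB with HSPA8 and FSAF1 in the lower row, per array and group, with the mean and SD (n = 3). In the upper row the shRNA mean stands below GFP, and in the lower row it stands near GFP, at 8.54 against 8.63 for UBB.

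The wider pathway was followed through 105 other genes of protein quality control with a row of their own. With limma 0 of them passed against GFP in any of the 3 comparisons. At an unadjusted p under 0.05 there were 10 higher and 0 lower with full-length MED12, where 1.44% of all rows were higher and 1.36% lower. With the PQL/Opa deletion there were 2 higher and 1 lower, where 1.75% of rows were higher and 1.7% lower. With the shRNA there was 1 higher and 8 were lower, where 2.47% of rows were higher and 2.58% lower. With the shRNA against full-length MED12 3 of 105 passed, beside 0.104% of rows, all lower, and all are chaperone genes known as HSF1 targets. At an unadjusted p under 0.05 that comparison had 0 higher and 22 lower of the 105, where 2.95% of rows were higher and 4.22% lower. DNAJB1, the HSP40 co-chaperone that feeds clients to HSP70, fell by 2.91 ± 0.30 (SE) on the log2 scale, with means of 3.02 ± 0.55 with the shRNA and 5.93 ± 0.38 with full-length MED12 (SD, n = 3; limma, adjusted p = 0.00400). HSPH1 fell by 2.12 ± 0.27 (SE; limma, adjusted p = 0.00956), and HSPA4L fell by 1.49 ± 0.21 (SE; limma, adjusted p = 0.0165). Full-length MED12 against the PQL/Opa deletion gave 0 calls with limma, and 6 higher and 0 lower at an unadjusted p under 0.05, where 1.11% of rows were higher and 0.795% lower. The 105 genes were listed with results of these arrays known, and nothing is read from these counts.

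Of 19 genes known as HSF1 targets, chaperone genes together with BAG3, DEDD2 and IER5, 15 were measured. Of these, 14 lay above 0 with full-length MED12, with a median log2 fold change of 0.66, and 12 with the PQL/Opa deletion, with a median of 0.22. With the shRNA 3 lay above 0, with a median of -0.25. The list was drawn up with results of these arrays known, and its shifts are no independent evidence. HSP90AA1, the inducible cytosolic HSP90, departed from most of the list with the PQL/Opa deletion only. It averaged 9.70 ± 0.19 with full-length MED12, 9.13 ± 0.23 with the PQL/Opa deletion, 9.14 ± 0.24 with the shRNA and 9.63 ± 0.07 with GFP (SD, n = 3). It was the most negative of that list with the PQL/Opa deletion, with a log2 fold change of -0.51 ± 0.18 (SE) that did not pass with limma. HSPD1 was the only gene of the list below 0 with full-length MED12, at -0.12 ± 0.32 (SE), and it was 0.21 ± 0.32 (SE) with the shRNA.

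BAG co-chaperones link HSP70 to degradation, and BAG3 works with HSPB8 in chaperone-assisted autophagy. The BAG genes were listed together with STUB1, a chaperone-linked ubiquitin ligase gene. All 7 of that list were measured, with median log2 fold changes against GFP of 0.25 with full-length MED12, 0.23 with the PQL/Opa deletion and -0.19 with the shRNA. STUB1 was the only gene of the list on the other side of 0 in each, at -0.12, -0.002 and 0.09. The list shares BAG3 with the HSF1 targets above. BAG3 averaged 4.89 ± 0.10 with full-length MED12 and 4.23 ± 0.19 with GFP (SD, n = 3), a log2 fold change of 0.66 ± 0.17 (SE). With the shRNA BAG3 averaged 3.94 ± 0.14, and its log2 fold change against full-length MED12 was -0.95 ± 0.17 (SE; limma, adjusted p = 0.0924). The autophagy receptors, the class of SQSTM1, were measured in 12 of 14 cases and had medians of 0.09 with full-length MED12, 0.05 with the PQL/Opa deletion and 0.01 with the shRNA against GFP. FUNDC1, a receptor on mitochondria, averaged 7.19 ± 0.24 with full-length MED12 and 6.53 ± 0.66 with GFP (SD, n = 3). It also stood above GFP with the PQL/Opa deletion, at 6.99 ± 0.33, and with the shRNA, at 7.13 ± 0.17 (SD, n = 3). TAX1BP1, a receptor for ubiquitin-tagged aggregates, averaged 5.77 ± 0.45 with the shRNA and 6.38 ± 0.30 with GFP (SD, n = 3). Genes of aggregate handling and stress granules, 11 of 13 measured, had medians of 0.11 with full-length MED12, 0.00 with the PQL/Opa deletion and -0.04 with the shRNA. Other large differences from GFP in these lists did not pass either. Among the BAG genes BAG5 averaged 3.45 ± 0.80 with the shRNA and 4.14 ± 0.55 with GFP (SD, n = 3), and among the receptors BNIP3 had a log2 fold change of -0.68 ± 0.80 (SE) with the PQL/Opa deletion. Among the aggregate genes G3BP1 averaged 5.75 ± 0.31 with the PQL/Opa deletion and 5.32 ± 0.34 with GFP, and UBQLN4 averaged 1.35 ± 0.22 with the shRNA and 1.81 ± 0.40 with GFP (SD, n = 3). In each of these lists 0 genes passed over all rows with limma in any comparison.

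**Figure D5:**
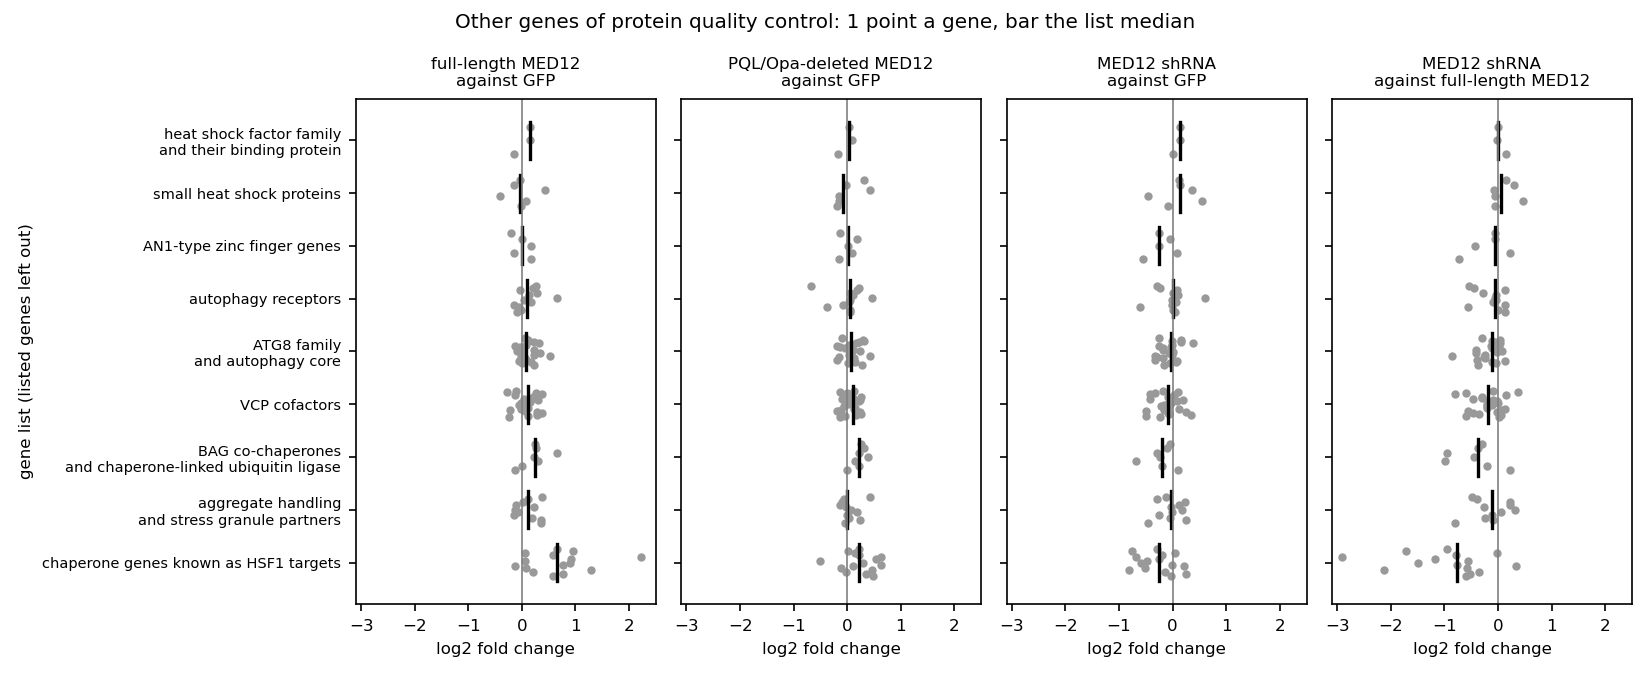
Log2 fold change (horizontal axis) of the other genes of protein quality control in 4 comparisons, 1 point a gene and 1 row a list, with the listed genes left out and a bar at each list's median. The HSF1 targets have medians of 0.66 with full-length MED12, 0.22 with the PQL/Opa deletion and -0.25 with the shRNA against GFP. Those of the list of BAG genes and STUB1 are 0.25, 0.23 and -0.19 in the same order, and that of the AN1-type list is -0.26 with the shRNA. The medians of the autophagy and VCP cofactor lists lie between -0.08 and 0.11 against GFP.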

How the data were processed

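RNA of 12 samples was measured on 1-colour arrays. The authors deposited log2 values, 1 per row and array; per the submitters' processing notes they used Partek, RMA and the genome build hg18, while versions, probe set level, background option and filters were not given in the sources used here. The values were used as deposited, and 0 columns were left out. Symbols came from the platform annotation. All 22011 rows of the 12 arrays entered 1 linear model of 4 group means (limma 3.58.1 under R 4.3.3, lmFit then eBayes with no trend, 8 residual and 3.52 prior degrees of freedom), which was tested on simulated data. Tests were two-sided, p-values were adjusted by Benjamini-Hochberg across the rows, and the threshold was 0.05. Precision is limited by how many arrays there are: log2 fold changes had a median standard error of 0.23, and exact permutation of 3 against 3 arrays gives no p below 0.1.

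The 9 genes and the lists of related genes were chosen with earlier results of these data known. Every listed gene is named, with the 2 rows most correlated with it and any list gene that passes over all rows. The rows with the largest difference in each direction per list and comparison with GFP could be named, and some were. Promoters were matched by symbol. Same-numbered arrays deviated together (correlation over 0.1 in every pair) in full-length MED12 and GFP (0.101 to 0.229) and in the PQL/Opa deletion and GFP (0.149 to 0.472). What a number marks is not given. The alternatives were a replicate block, other normalizations, filters and priors, a fit of 2 groups, and leaving out arrays.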

Additional observations from a re-analysis of the deposited data

How the results depend on the processing

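Beside the reported fit 19 alternatives were run. The replicate block, which pairs arrays of one number, changed no call of the 6 genes: 0 were called against GFP, and ZFAND2A passed with the shRNA against full-length MED12 (limma, adjusted p = 0.00785). ZFAND2A with the shRNA against full-length MED12 passed in 18 of 19 alternatives, including 12 of 12 that left out an array (limma, adjusted p = 0.00330 to 0.0399). Leaving out a GFP or PQL/Opa deletion array does not change this difference and enters its test only through the estimate of spread. The gene was chosen with results of these arrays known, so these fits are no independent evidence. ZFAND2A did not pass with only those groups fitted, where the spread came from fewer arrays. There 0 of the 6 genes and 2 of all rows were called. The F test called 0 of the 6 genes without the 3 narrowest arrays, and 0 to 1 of them when an array was left out. The cause was not tested.

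The median log2 fold change of the 6 genes with full-length MED12 against GFP was 0.0623 without the narrow arrays, and 0.0623 (without GFP replicate 1) to 0.51 (without GFP replicate 3) when an array was left out. With the PQL/Opa deletion against GFP it was 0.43 over rows above the median level, a filter that GABARAP does not pass, and 0.43 to 0.77 when an array was left out. With the shRNA against GFP it ranged from -0.12 (without shRNA replicate 1) to 0.0622. For full-length MED12 against the PQL/Opa deletion it was -0.25 without the narrow arrays, and -0.25 (without PQL/Opa deletion replicate 1) to -0.0368. For the shRNA against full-length MED12 it was -0.26 over rows above the median level, and -0.28 (without shRNA replicate 2) to 0.0665. Of 30 log2 fold changes of single genes 19 kept 1 sign throughout, and the largest that turned was 0.33, VCP with full-length MED12.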
